A study of Mus musculus with 101 samples.

Results

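The genes described here are those placed on mouse chromosome 12 by the GRCm38 RefSeq annotation, 1230 of the 43513 symbols in the deposited table of copy-number segments, from Rab10os at the proximal end to Tmem196 at the distal end. The chromosome was chosen by its low segment values in these same tumours, known from earlier results, so its level, its classes of loss and its rank among chromosomes are given as descriptions without a test. Of the 1230 members, 550 are protein-coding genes, 272 pseudogenes, 235 long non-coding RNAs, 86 miRNAs and 36 snoRNAs, and every member had a value in every tumour, since no filter was applied. The values came from low-coverage whole-genome sequencing of genomic DNA from 98 mammary tumours and 3 spleens of mice. The tumours carried 4 genotypes named KP, KB1P, KB2P and KB1(L1363P)P, and the labels gave each a histologic type and a percentage of epithelial tissue. In the usual naming of these models K stands for a Cre recombinase driven by the keratin 14 promoter, P for conditional loss of Trp53, B1 for Brca1 and B2 for Brca2, so that all 4 groups share the Trp53 loss. L1363P names a Brca1 protein change. The KP group held 6 adenocarcinomas, 2 carcinosarcomas and 10 sarcomatoid tumours, and the KB1(L1363P)P group held 3 adenocarcinomas, 9 carcinosarcomas and 12 sarcomatoid tumours. The KB1P group held 29 adenocarcinomas, 1 carcinosarcoma and 1 sarcomatoid tumour, and all 25 KB2P tumours were adenocarcinomas. Strain and age were not given in the labels used here, and which tumours came from 1 animal was not given either.

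Loss of a whole chromosome removes 1 copy of every gene on it, whereas loss of an arm or a stretch requires a break within the chromosome and leaves part of the gene content intact. Mouse chromosomes are acrocentric, with the centromere near 1 end, so a broken copy that stays attached to its centromere keeps its proximal part. Chromosome 12 carries Dnmt3a, a DNA methyltransferase, near its proximal end, genes of hypoxia and transcription control such as Hif1a in its middle, the imprinted Dlk1 to Dio3 domain with a dense miRNA cluster in its distal part, and the immunoglobulin heavy chain genes close to the distal end.

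The stretch lost in most of the broken copies ran from Rdh12, a retinol dehydrogenase, to Actn1, which encodes an actin-binding alpha-actinin, and held Zfp36l1, an RNA-binding protein that shortens the life of many messenger RNAs. Distally, Siva1, a pro-apoptotic gene, closed a stretch that 5 KB2P tumours carried at a raised level. Windows of 150 bases at the start of these 4 genes are printed because they mark the borders and the best known gene of those stretches. They are from RefSeq on build GRCm38.p6, on the strand of the gene, with each CG in capitals.
Rdh12 promoter stretch: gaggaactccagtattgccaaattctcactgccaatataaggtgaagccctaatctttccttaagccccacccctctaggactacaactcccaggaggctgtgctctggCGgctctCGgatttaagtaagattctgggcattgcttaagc
Zfp36l1 promoter stretch: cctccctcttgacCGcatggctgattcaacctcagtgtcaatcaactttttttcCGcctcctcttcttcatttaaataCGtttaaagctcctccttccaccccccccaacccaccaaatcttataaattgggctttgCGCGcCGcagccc
Actn1 promoter stretch: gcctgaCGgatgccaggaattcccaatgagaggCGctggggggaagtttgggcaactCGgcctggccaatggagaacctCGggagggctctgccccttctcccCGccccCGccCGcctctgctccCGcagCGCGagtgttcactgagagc
Siva1 promoter stretch: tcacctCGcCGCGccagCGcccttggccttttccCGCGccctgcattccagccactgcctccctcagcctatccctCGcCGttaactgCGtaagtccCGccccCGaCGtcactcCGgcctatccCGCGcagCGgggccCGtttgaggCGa
These stretches lie at chr12:79208763-79208912 on the plus strand for Rdh12, chr12:80113014-80113163 on the minus strand for Zfp36l1, chr12:80260364-80260513 on the minus strand for Actn1 and chr12:112644678-112644827 on the plus strand for Siva1. The Actn1 window reaches into the annotated gene, whose border lies at 80260420, while the other windows end just before their genes. The dinucleotide CG, which reads the same on both strands, occurred 2 times before Rdh12, and 70.7% of 32851 promoters of the same length held at least as many. It occurred 6 times before Zfp36l1 (41.4% of promoters held as many), 10 times in the Actn1 window (28.8%) and 18 times before Siva1 (9.20%). The count of CG describes these windows and was not set against any copy number.

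Of the 86 miRNA members, 84 had a mature sequence in RefSeq, with 150 mature sequences and 141 different seeds. The domain from Dlk1 to Dio3 held 59 of the miRNA members and 110 of the mature sequences, and 8 seeds were shared by 2 sequences within it. Of these, 3 pairs with a shared seed are printed, with Mir203 of the distal raised stretch, to show which miRNAs are lost or kept together when 1 segment is lost. Capitals mark the seed, bases 2 to 8.
mmu-miR-379-5p: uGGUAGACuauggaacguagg
mmu-miR-1193-5p: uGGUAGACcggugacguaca
mmu-miR-379-3p: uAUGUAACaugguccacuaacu
mmu-miR-411-3p: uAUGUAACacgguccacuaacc
mmu-miR-376c-5p: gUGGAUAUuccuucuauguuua
mmu-miR-376b-5p: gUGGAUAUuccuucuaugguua
mmu-miR-203-5p: aGUGGUUCuugacaguucaaca
mmu-miR-203-3p: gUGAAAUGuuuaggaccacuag
The mature sequence of miR-379-5p lies at chr12:109709065-109709085 and that of miR-1193-5p at chr12:109715716-109715735, both on the plus strand of GRCm38.p6. No mature sequence outside its pair shared these seeds among the chromosome 12 miRNAs, and a shared seed says nothing of expression, which was not measured here.

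The level of a tumour is the mean segment value, a log2 ratio smoothed by the authors over stretches of the genome, of its chromosome 12 genes. In bulk DNA, a loss in more of the cells and a loss of more copies per cell cannot be told apart. Admixed normal cells pull every value towards 0. The 3 spleens lay between -0.0021 and 0.0022, with no step along the chromosome. The unsmoothed log2 ratios of the chromosome 12 genes scattered around their segments by 0.0704 to 0.170 (SD over genes, median 0.0872) in the 98 tumours. The gene-level log2 ratios did not check the genotype labels: the median at Trp53 lay between -0.13 and -0.08 in all 4 genotypes, that at Brca1 was 0.00 in KB1P and that at Brca2 was 0.32 in KB2P. A gene was counted as lost at a segment value of -0.2 or less and as gained at 0.2 or more. The deposited copy score itself called a loss only at about -0.42 or less and a gain at about 0.30 or more.

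The lowest group means were found in adenocarcinomas and carcinosarcomas of the KP and KB1(L1363P)P genotypes. The means of the sarcomatoid tumours of the same genotypes lay nearer to 0. The 6 KP adenocarcinomas had levels of -0.84, -0.69, -0.62, -0.47, -0.46 and -0.22, a mean of -0.55 ± 0.21 (SD, n = 6). All 6 lay below the spleens, and 5 of the 6 lay below every KP sarcomatoid tumour. The 2 KP carcinosarcomas had levels of -0.80 and -0.43. The 10 KP sarcomatoid tumours ranged from -0.31 through a median of -0.23 to 0.19, a mean of -0.19 ± 0.14 (SD, n = 10). In 9 of these 10 the level was below 0, and the exception, replicate 12, had 1 even segment at 0.19 along the whole chromosome.

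The KB1(L1363P)P tumours had the same order of histologic types. Their 3 adenocarcinomas had levels of -0.79, -0.49 and -0.39, a mean of -0.55 ± 0.21 (SD, n = 3). The 9 carcinosarcomas ranged from -0.91 through a median of -0.57 to -0.24, a mean of -0.57 ± 0.25 (SD, n = 9). The 12 sarcomatoid tumours ranged from -0.52 through a median of -0.22 to -0.05, a mean of -0.22 ± 0.14 (SD, n = 12). The carcinosarcomas and the sarcomatoid tumours overlapped between -0.52 and -0.24. All KB1(L1363P)P sarcomatoid tumours were sequenced in library series 5289 and all KP sarcomatoid tumours in series 5750. Within series 5289 the KB1(L1363P)P carcinosarcomas had a mean of -0.51 ± 0.23 (SD, n = 6) beside the sarcomatoid mean of -0.22, and in series 5490 the other carcinosarcomas had a mean of -0.70 ± 0.29 (SD, n = 3). For KP, histologic type and library series cannot be told apart in the sarcomatoid tumours.

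The adenocarcinomas of KB1P and KB2P spread from deep loss to gain. The 29 KB1P adenocarcinomas ranged from -0.86 through a median of -0.21 to 0.49, a mean of -0.22 ± 0.39 (SD, n = 29). The 25 KB2P adenocarcinomas ranged from -0.77 through a median of -0.21 to 0.40, a mean of -0.19 ± 0.29 (SD, n = 25). The KB1P range covered all 9 KP and KB1(L1363P)P adenocarcinomas, the KB2P range 7 of the 9, and both reached above 0, where none of the 9 lay. The only KB1P sarcomatoid tumour was at -0.28 and the only KB1P carcinosarcoma at -0.01. Among the KB1P adenocarcinomas, the 19 titled KB1P had a mean of -0.34 ± 0.33 (SD, n = 19), and 3 of them lay above 0. The 10 titled KB1PM had a mean of 0.01 ± 0.39 (SD, n = 10) and ranged from -0.85 to 0.49, and 6 of the 10 lay above 0. The labels used here do not explain the letter M, and 8 KB1P adenocarcinomas of series 2766 had a mean of -0.01 ± 0.50 (SD, n = 8), so title and library series were not separated.

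**Figure D1:**
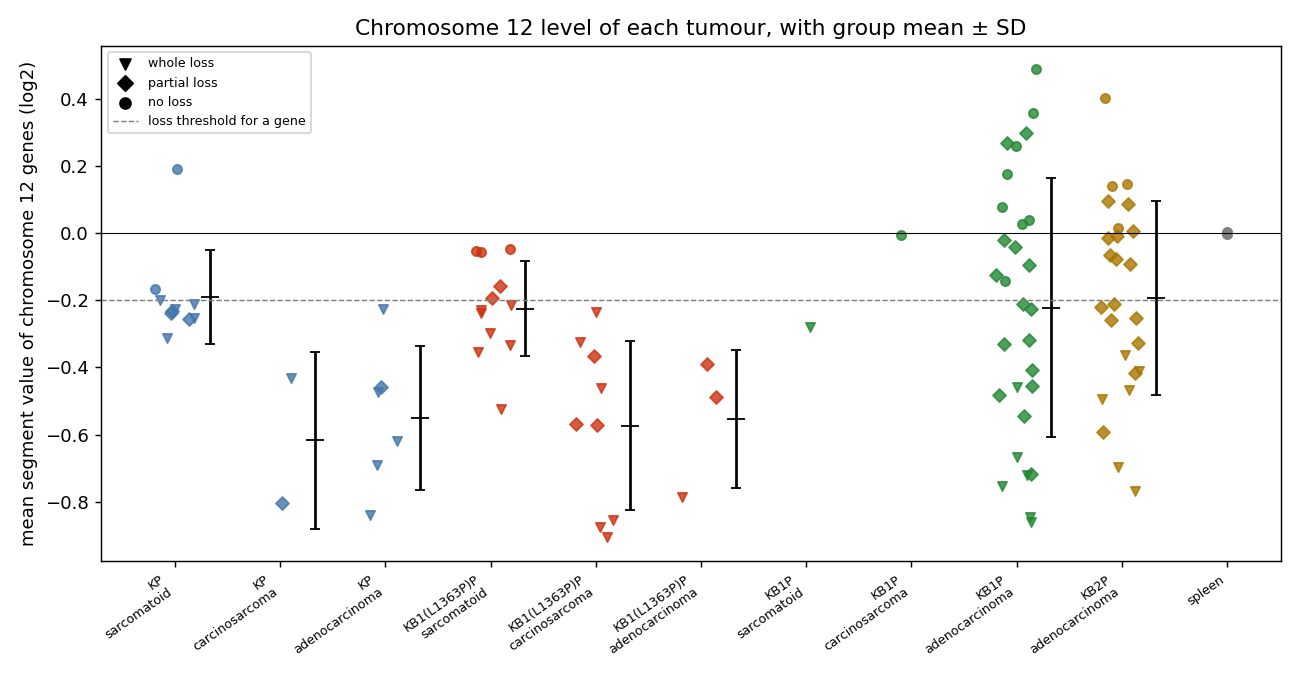
Mean segment value (log2) of the chromosome 12 genes in each tumour, by genotype and histologic type, with the marker shape giving the class of loss, the bar the group mean ± SD and the dashed line the threshold of -0.2 for a lost gene. The KP adenocarcinomas sit between -0.84 and -0.22 and the KP sarcomatoid tumours between -0.31 and 0.19, and the KB1P adenocarcinomas spread from -0.86 to 0.49.

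Chromosome 12 had the lowest mean of the 19 autosomes in 46 of the 98 tumours. This held in 32 of the 42 KP and KB1(L1363P)P tumours, among them 9 of 10 KP sarcomatoid tumours, 5 of 6 KP adenocarcinomas and 8 of 9 KB1(L1363P)P carcinosarcomas. It held in 14 of the 56 KB1P and KB2P tumours. In the KP adenocarcinomas the next lowest autosome on average was chromosome 14 at -0.16 ± 0.22 (SD, n = 6), far above the -0.55 of chromosome 12. In the KB1(L1363P)P adenocarcinomas chromosome 8 was close behind, at -0.52 ± 0.41 (SD, n = 3). In KB2P, chromosomes 8 and 14 had lower means, -0.23 and -0.20, than chromosome 12 at -0.19. These ranks describe the values that led to the choice of the chromosome.

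A tumour was classed as whole-chromosome loss where at least 95% of the chromosome 12 genes were lost, as no loss where under 5% were lost, and as partial loss in between. By this rule 38 tumours had lost the whole chromosome, 42 had a partial loss and 18 had none. Whole-chromosome loss was the most frequent class in KP and KB1(L1363P)P, with 25 whole, 12 partial and 5 without loss among 42 tumours. Partial loss was the most frequent class in KB1P and KB2P, with 13 whole, 30 partial and 13 without loss among 56 tumours. By type, the class of whole loss held 5 of 6 KP adenocarcinomas, 5 of 10 KP sarcomatoid tumours, 7 of 12 KB1(L1363P)P sarcomatoid tumours and 6 of 9 KB1(L1363P)P carcinosarcomas. It held 6 of 29 KB1P and 6 of 25 KB2P adenocarcinomas. All 3 KB1(L1363P)P adenocarcinomas had lost genes, 1 of them over the whole chromosome.

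The segment values showed how even these losses were. A step is a change of value between neighbouring genes, and a gene that spans a break has a value in between, so that 1 break can give more than 1 step. In 36 tumours the chromosome was 1 segment without any step, and 29 of the 38 whole losses were of this kind. No step was present in 10 of the 12 KB1(L1363P)P and 7 of the 10 KP sarcomatoid tumours. In contrast, 5 of the 29 KB1P and 4 of the 25 KB2P adenocarcinomas had none, and the largest number of steps was 40, in KB2P replicate 25, against 15 in any KB1P tumour. A gain of at least 5% of the genes was present in 13 of the 29 KB1P and 12 of the 25 KB2P adenocarcinomas. In KP and KB1(L1363P)P such a gain was present in 1 carcinosarcoma.

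The classes of the shallow losses depended on the threshold. The level of 6 sarcomatoid tumours and 5 adenocarcinomas lay within 0.03 of -0.2. Just inside it, KP sarcomatoid replicate 15 had 1 segment at -0.20 over the whole chromosome. Just outside it, KP sarcomatoid replicate 13 had 1 segment at -0.17 and counted as no loss. With a threshold of -0.3 the tumours without loss rose from 18 to 35, and with the deposited copy score they numbered 46 and the whole losses 16. With that score none of the 10 KP sarcomatoid tumours and 1 of the 12 KB1(L1363P)P sarcomatoid tumours counted as whole loss. Of the 42 KP and KB1(L1363P)P tumours, 14 were whole, 10 partial and 18 without loss at -0.3, and 7, 11 and 24 with the copy score, so that no loss became the most frequent class. The 5 whole losses among 6 KP adenocarcinomas were 3 at -0.3, with the copy score and after centring on the autosomal median.

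**Figure D2:**
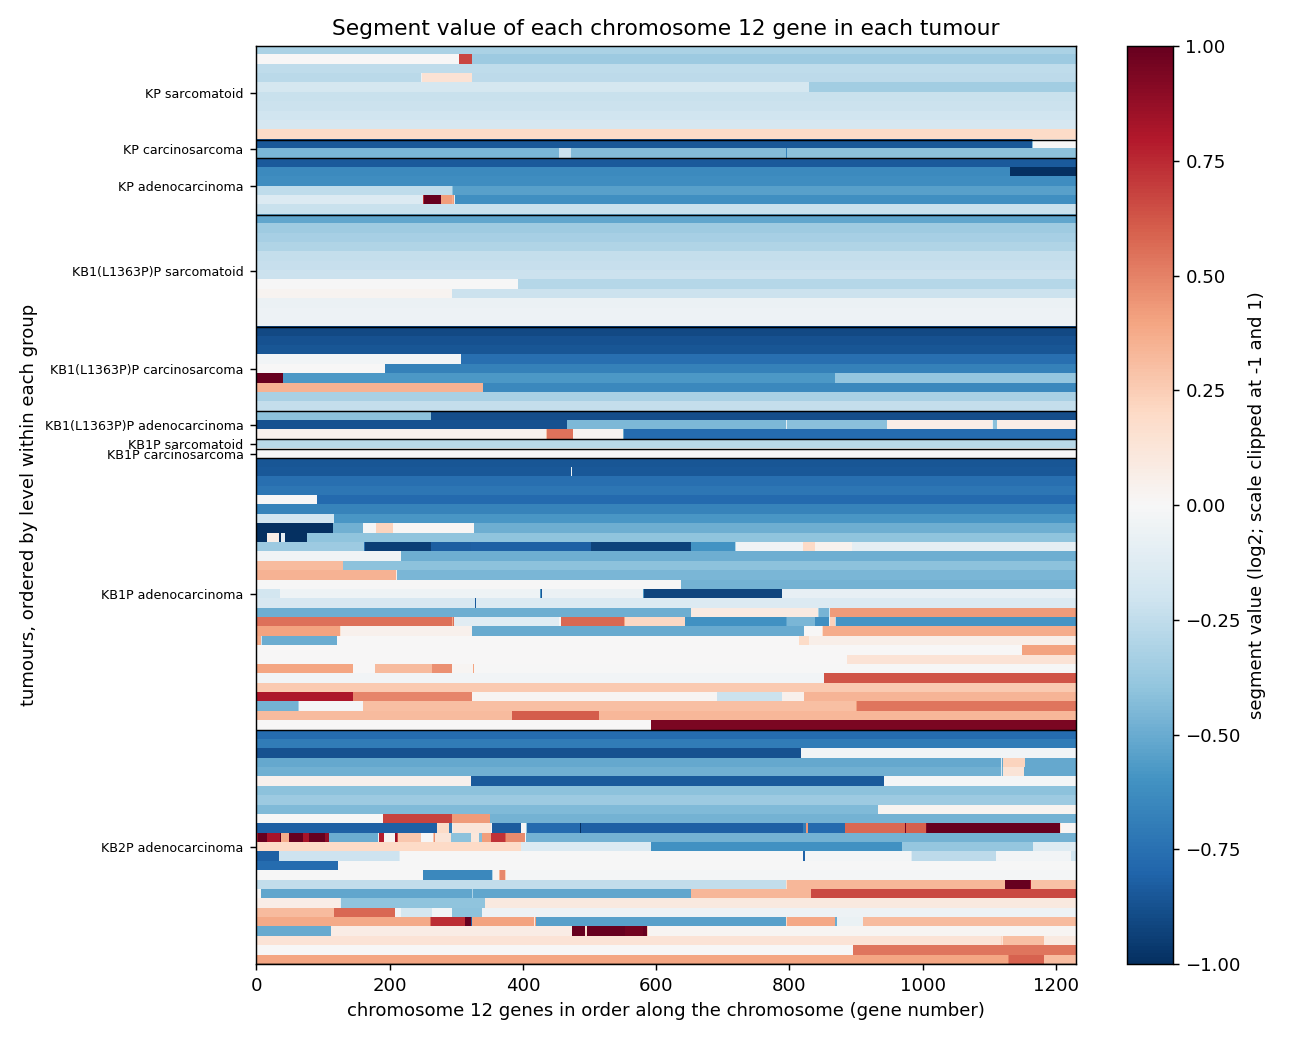
Segment value (log2, colour scale clipped at -1 and 1) of each chromosome 12 gene, in order from the proximal end on the left, in each tumour, one line per tumour, ordered by level within each group. Even pale lines fill the sarcomatoid groups, where 10 of 12 KB1(L1363P)P and 7 of 10 KP tumours had no step, and broken lines with gains fill KB1P and KB2P.

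Most partial losses of KP and KB1(L1363P)P kept the proximal end. Of the 12, 9 had lost the distal end and kept the proximal end, 2 had lost the proximal end alone and 1 had lost both ends. Their breaks lay at different places. KB1(L1363P)P replicate 3 was at 0.00 as far as Sox11, 27.3 Mb along the chromosome, and at -0.67 from there to the end. In replicate 5 the step from -0.03 to -0.75 lay near 39.5 Mb, in replicate 24 that from 0.35 to -0.64 lay near 48.0 Mb, and in the sarcomatoid replicate 20 that from -0.01 to -0.28 lay near 54.8 Mb. These 4 tumours shared the shape of a kept proximal and a lost distal part, with breaks spread from 27.3 to 54.8 Mb. In the adenocarcinoma replicate 19 the order was reversed, with -0.87 as far as 62.4 Mb and 0.06 at the distal end.

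In KB1P and KB2P the shapes were mixed. Of their 30 partial losses, 9 had lost the distal end alone, 9 the proximal end alone, 2 both ends and 10 neither. KB1P had 7 distal against 3 proximal end losses, and KB2P had 2 distal against 6 proximal. KB2P replicate 15 was at -0.87 as far as 91.9 Mb and at -0.03 beyond, while KB1P replicate 15 was at 0.00 as far as 12.0 Mb and at -0.78 beyond. KB2P replicate 16 had an inner loss at -0.84 from 41.5 to 104 Mb between ends at 0.05 and -0.02. The number of distal and proximal end losses was not tested between genotypes.

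The most often lost stretch over all 42 partial losses was chr12:79208913-80260420, from Rdh12 to Actn1, lost in 33 of the 42. It held 9 members, 4 of them protein-coding: Rdh12, Zfyve26, which acts in lysosome reformation, Zfp36l1 and Actn1. The border was narrow, since the neighbours Rdh11 and Dcaf5 were lost in 32 and 31 tumours. The proximal end gene Rab10os was lost in 14 of the 42 and the distal end gene Tmem196 in 21. The same stretch was at the top in the 30 partial losses of KB1P and KB2P, with 22 tumours. KB2P alone gave a longer stretch of 61 members, chr12:74897217-80260420 from Kcnh5 to Actn1, lost in 10 of 15. KB1P alone gave 12 of 15, both at Rdh12 to Actn1 and at 29 members of chr12:83121415-84361860, from 1700030I03Rik to Fam161b.

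Among the 12 partial losses of KP and KB1(L1363P)P, 11 had also lost Rdh12 to Actn1, and the exception, KP replicate 10, was at -0.17 there, just outside the threshold. All 12 had lost chr12:95684150-104394259, from Rpl17-ps2 to Serpina3m, with 116 members of which 68 were protein-coding, and also the 5 members from Ankrd9 to 4930595D18Rik at chr12:110976420-111184491. Beside these 12 of 12, Rab10os was lost in 3 and Tmem196 in 10. In KP alone the shared stretch ran over 335 members, chr12:95684150-113004481 from Rpl17-ps2 to 9230104M06Rik, with 146 protein-coding genes and 68 miRNAs. In KB1(L1363P)P alone all 7 partial losses shared 244 members at chr12:71540607-88591977 and 150 members at chr12:90399690-104394259 besides the 5 at Ankrd9. At a threshold of -0.1 the stretch at 71.5 to 88.6 Mb, which holds Rdh12 to Actn1, was lost in all 10 partial losses, as was that up to Serpina3m. With the deposited copy score it was lost in 11 of 11, and Rpl17-ps2 to Serpina3m in 9 of 11. Since each stretch rests on where a few breaks happened to fall, the counts of neighbouring genes are not independent.

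**Figure D3:**
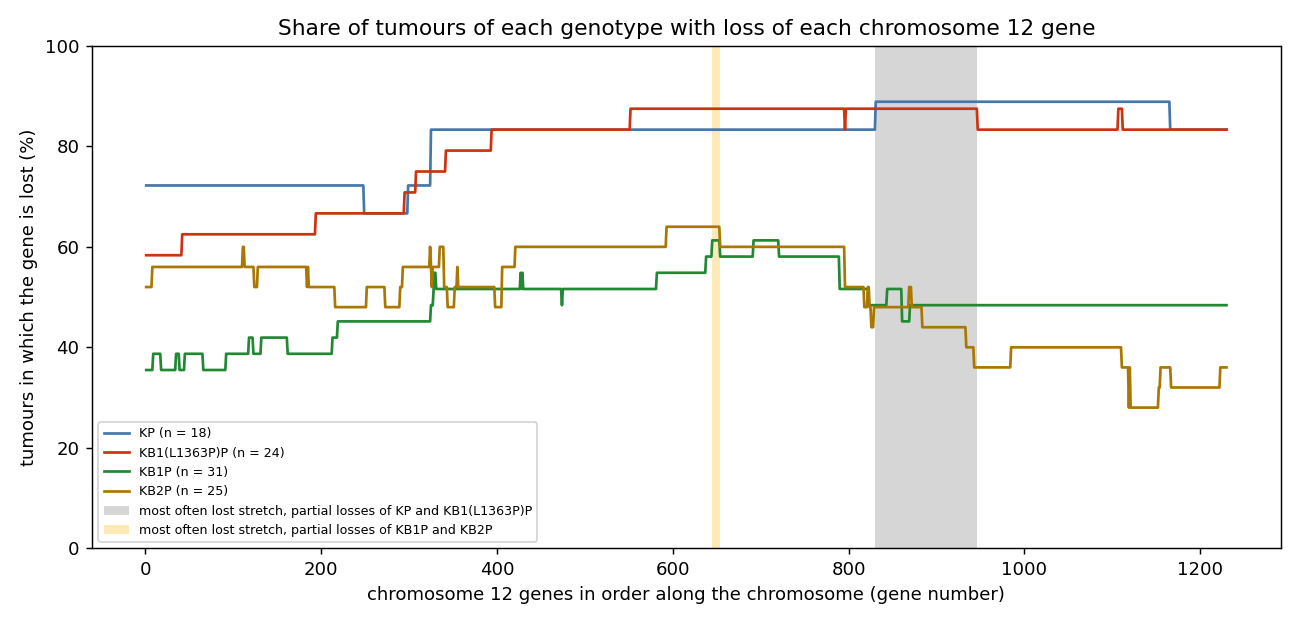
Percentage of tumours of each genotype in which each chromosome 12 gene was lost, along the gene order, with the most often lost stretches of the partial losses shaded. KP runs between 66.7% and 88.9%, KB1(L1363P)P between 58.3% and 87.5%, KB1P between 35.5% and 61.3%, and KB2P between 28% and 64%.

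Counted over all tumours, the share of tumours with a loss varied least along the chromosome in KP, where the genes were lost in 12 to 16 of 18 tumours, with a median of 15. In KB1(L1363P)P they were lost in 14 to 21 of 24 tumours (median 20), with the minimum at Rab10os. In KB1P they were lost in 11 to 19 of 31 tumours (median 15), with the minimum at Rab10os and the maximum at Rdh12. In KB2P they were lost in 7 to 16 of 25 tumours (median 13), with the maximum at Kcnh5. The median gene had a mean segment value of -0.37 in KP, -0.42 in KB1(L1363P)P, -0.21 in KB1P and -0.21 in KB2P, and these values serve as the background for the gene groups that follow.

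Of 15 listed genes of growth control and tumour suppression, all were measured, and their median mean segment values were -0.37, -0.43, -0.20 and -0.20 in KP, KB1(L1363P)P, KB1P and KB2P, close to those of all members. Zfp36l1 was lost in 15 of 18 KP, 21 of 24 KB1(L1363P)P, 19 of 31 KB1P and 16 of 25 KB2P tumours. Its mean segment value was -0.37 ± 0.27 (SD) in KP, -0.45 ± 0.28 in KB1(L1363P)P, -0.32 ± 0.44 in KB1P and -0.34 ± 0.35 in KB2P. It was the most often lost member of this list, with loss in 71 of the 98 tumours. Dnmt3a, near the proximal end at chr12:3801559-3914443, was lost in 13, 14, 12 and 14 tumours of the 4 genotypes in the same order and gained in 0, 2, 8 and 5. Siva1, near the distal end, was lost in 16, 20, 15 and 7, and its mean in KB2P was 0.07 ± 0.52 (SD, n = 25), with 8 tumours gained. Dicer1, which cuts miRNA precursors, and Traf3, a brake on NF-kappaB signalling, were each lost in 16 KP, 20 KB1(L1363P)P, 15 KB1P and 9 KB2P tumours. Numb, a regulator of Notch, was lost in 15, 21, 19 and 15.

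The 10 genes of replication and repair were all measured, with medians of -0.37, -0.42, -0.19 and -0.21 in the 4 genotypes. Mlh3, a mismatch repair partner, and Nek9, a mitotic kinase, were lost in 15 KP, 21 KB1(L1363P)P, 18 KB1P and 15 KB2P tumours. Gen1, a nuclease that resolves recombination junctions, and its neighbour Smc6 lie near the proximal end and were lost in 13, 15, 11 and 14. Ncapg2, a condensin subunit near the distal end, was lost in 15, 20, 15 and 8. The group was thus lost most often in the middle of the chromosome in KB1P, and its distal member least often in KB2P.

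Of 14 transcription factors and receptors of epithelial and developmental control, all measured, Esr2, the estrogen receptor beta, was lost in 15 KP, 21 KB1(L1363P)P, 17 KB1P and 16 KB2P tumours. Foxa1, a pioneer factor of the luminal mammary programme, was lost in 15, 20, 16 and 15, with means of -0.38 ± 0.27, -0.43 ± 0.31, -0.28 ± 0.38 and -0.32 ± 0.35 (SD). Ahr, the receptor for dioxins, was lost in 12, 16, 14 and 12. Of 15 genes of hypoxia, stress and signalling, 14 were measured, all but Fos. Hif1a, the oxygen-regulated transcription factor, was lost in 15, 21, 17 and 15, and Id2 and Klf11, nearer to the proximal end, in 13, 15, 12 and 14. The medians of both lists lay at -0.37 in KP, at -0.43 and -0.42 in KB1(L1363P)P, at -0.28 in KB1P, and at -0.26 and -0.25 in KB2P. The KB1P and KB2P medians were lower than those of all members.

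All 7 measured genes of the imprinted domain, Dlk1 and Meg3 among them, were lost in 16 KP, 20 KB1(L1363P)P, 15 KB1P and 10 KB2P tumours. Their means were -0.38, -0.42 and -0.16 in the first 3 genotypes. In KB2P a break between Dlk1 and Meg3 in replicate 14, at 0.60 and 1.25, left means of -0.07 for Begain and Dlk1 and -0.05 from Meg3 to Dio3. The miRNAs of this domain printed above had the same 4 counts, and Mir203, which lies beyond it, was lost in 16, 20, 15 and 7. The 24 measured genes of the immunoglobulin heavy chain locus were lost in 15, 20, 15 and 8 tumours. At this locus the unsmoothed log2 ratios departed from the segment value, by 0.05 ± 0.08 in KP, 0.08 ± 0.08 in KB1(L1363P)P, 0.06 ± 0.10 in KB1P, -0.09 ± 0.09 in KB2P and 0.00 ± 0.01 in the spleens (mean ± SD over samples). The locus is rearranged in B cells, and whether B-cell DNA had a part in these departures was not tested.

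Some stretches stood at least 0.3 apart from the median of the chromosome over at most 10 Mb. Below the median, there were 6 such stretches in 3 KB1P tumours, 6 in 4 KB2P tumours and 1 in 1 KP tumour, and none in KB1(L1363P)P. Above it, there were 8 in 7 KB1P tumours, 16 in 8 KB2P tumours, 4 in 2 KP tumours and 4 in 2 KB1(L1363P)P tumours. A gene that spans a break can divide 1 raised region into more than 1 of these stretches. By these counts, more of the short stretches stood above than below the rest of the chromosome. Standing above a lost median does not mean a gain. The stretch of KB1P replicate 15 was at 0.0029 beside a median of -0.78, and 1 of KP replicate 3 at -0.0013 beside -0.85. The counts therefore do not give the number of gains. The lowest larger stretch was in KB1P replicate 2, where 8 members from Rab10os to Dtnb and 32 members from 7.86 to 11.2 Mb were at -2.12, and the 9 members from Dnmt3a to Ncoa1 at -0.99. Between these deep stretches 17 members were at 0.06 and 6 at -0.09, and from 11.2 Mb to the distal end the chromosome was at -0.40. Dnmt3a, Pomc, the precursor of melanocortins, Adcy3, an adenylyl cyclase, and Ncoa1, a nuclear receptor coactivator, were in a focal low stretch in this tumour and in KB2P replicate 22, where the proximal 34 members were at -0.82. They are among 20 genes low in 2 tumours, with Lrrn3, Pnpla8 and Nrcam among the others.

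Other deep segments were broader. KP replicate 4 was at -0.64 as far as 112 Mb and at -1.34 over the last 98 members, from Gm19195 to Tmem196. KB1P replicate 13 was at -1.17 over the proximal 115 members and at -0.49 over the distal 903. A segment of 1 gene, Gm26015, was at -3.36 in KB2P replicate 14. In all, 5 of the 98 tumours had a member at or below -1.

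Raised stretches occurred in all 4 genotypes. KP replicate 8 had 14 members at 1.59 from 32.9 to 33.9 Mb, in a raised region with -0.13 on its proximal and -0.62 on its distal side. Its next segment, 11 members from Hdac9, a histone deacetylase, to Agr3, was at 1.09 and held Ahr. KP sarcomatoid replicate 14 had 18 members at 0.67 from 39.2 to 41.0 Mb and KP sarcomatoid replicate 18 had 73 members from Gm17820 to Gm18954 at 0.15, each with a lost part beyond. KB2P replicate 5 had a peak of 1.15 from Lsmem1 to Gm18954. In both KP tumours the raised value also held at Lrrn3, beyond Gm18954, while in KB2P replicate 5 Lrrn3 was at -0.82. KB1(L1363P)P replicate 15 had 41 proximal members at 1.20 and the rest at -0.58 and -0.38. KB2P replicate 23 reached 1.83 near 71.5 Mb, and KB2P replicate 25, the tumour with 40 steps, reached 1.87. In 4 tumours each, 10 genes were in a focal high stretch: Rab10os, Rab10, Gm26520, Kif3c, 1110002L01Rik, Asxl2 and Rps7-ps2 near the proximal end, and Inf2, Adssl1 and Siva1 near the distal end. The proximal stretch was at 1.20 in KB1(L1363P)P replicate 15 and 0.38 in KB1P replicate 7. It was only 0.016 in KB2P replicate 24 and 0.0029 in KB1P replicate 15, kept rather than gained. The distal one was at 0.40 in KB1P replicate 19 and 0.063 in KB1(L1363P)P replicate 19. It was at 0.23 and 0.13 in KB2P replicates 10 and 12, which had nearly the same profile.

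In KB2P replicates 1, 9, 10, 12 and 17 a short distal stretch rose above both of its neighbours, a pattern picked after the values had been seen. The stretch stood at 0.30, 0.59, 0.23, 0.13 and 1.34 in these tumours, which was 0.16, 0.20, 0.74, 0.61 and 1.01 above the proximal neighbour. The part common to all 5 was chr12:111758435-112649152, 0.891 Mb with 23 members, 12 of them protein-coding, from Klc1, a kinesin light chain, to Siva1. Inf2, a formin, Ppp1r13b, a p53-binding protein, and Mir203 lie within it. Replicates 10 and 12 had nearly the same profile over all autosomes (Pearson's r 0.986 between segment values across 31194 genes, which share segments, against 0.954 for the next closest pair of tumours of 1 group and type), although they came from series 3196 and 3499. Whether they are 1 tumour sequenced 2 times is not stated in the labels, and counted once they leave 4 tumours with the step.

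**Figure D4:**
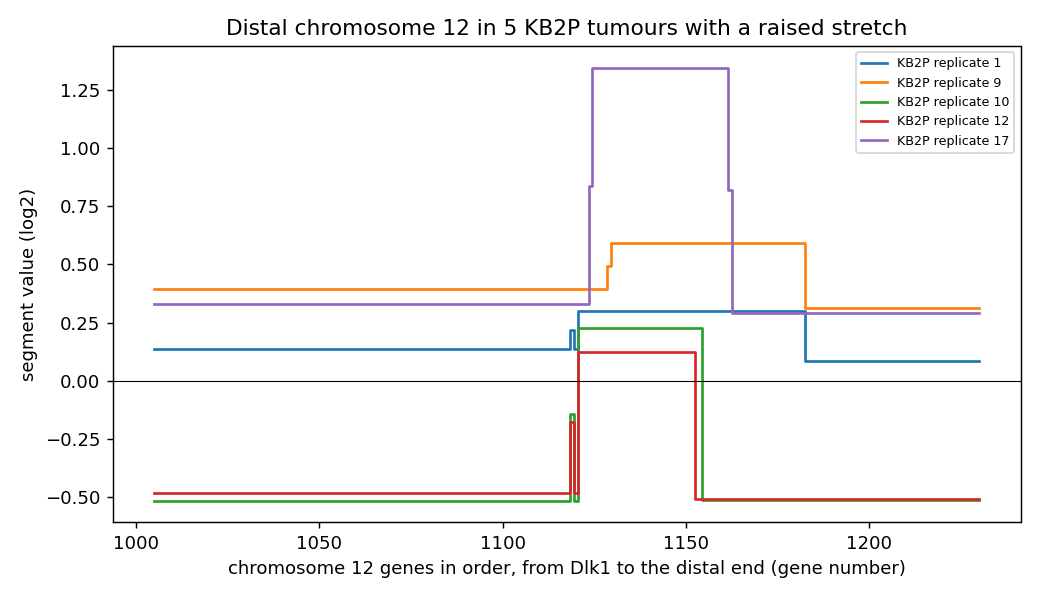
Segment value (log2) of the chromosome 12 genes from Dlk1 to the distal end, in gene order, in 5 KB2P tumours. Each line rises over a short stretch, by 0.16 to 1.01 above its proximal neighbour, and falls again before the distal end.

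Genotypes were compared within a histologic type by limma's moderated test on the segment values of all 43513 genes, with Benjamini-Hochberg adjustment over all of them and a threshold of 0.05. The chromosome was chosen with its low values in these tumours known, and its genes share segments and are not independent. The shares of members with an unadjusted p under 0.05 are therefore given as counts here and in the comparisons that follow. They are no independent evidence of a genotype difference. Between KB1P and KP adenocarcinomas no chromosome 12 gene was called, where 1.88% of all genes were, and 551 members (44.8%) had an unadjusted p under 0.05, as had 12.8% of all genes. The median member was higher in KB1P by 0.30, and the largest difference was at Inf2 and Siva1, 0.55 ± 0.19 (SE, 29 against 6 tumours, limma adjusted p = 0.117). The lowest limma adjusted p of any member was 0.0677, at Gm17807 and Tmem196, so that distal genes came closest to the threshold. KP replicate 4, 1 of the 6 KP adenocarcinomas, was at -1.34 over these distal genes, and no fit was run without it. The KP adenocarcinoma mean was -0.70 ± 0.37 (SD) at Siva1 and -0.58 ± 0.20 (SD) at Traf3, which lies proximal to that deep segment. On unsmoothed log2 ratios limma called 6 members (0.488%), all higher in KB1P, and 1.50% of all genes. Without the tumours titled KB1PM and KB1P 47 the median difference was 0.18, and within library series 5289 it was 0.19 (8 against 2 tumours), with no member called in either.

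Between KB2P and KP adenocarcinomas no member was called by limma, where 0.00919% of all genes were, and 557 members (45.3%) had an unadjusted p under 0.05, as had 9.11% of all genes. The median member was higher in KB2P by 0.30. Siva1 had the difference of 0.77 ± 0.19 (SE, 25 against 6 tumours) at a limma adjusted p of 0.108, with a 95% interval from 0.40 to 1.14. KP replicate 4, at -1.34 there, is among the 6 KP tumours, and no fit was run without it. Dnmt3a, at the other end of the chromosome, differed by 0.25 ± 0.21 (SE, limma adjusted p = 0.83) and Zfp36l1 by 0.24 ± 0.15 (SE, limma adjusted p = 0.649). On unsmoothed log2 ratios limma called 51 members (4.15%), all higher in KB2P, and 0.411% of all genes. The KP adenocarcinomas serve both comparisons, and KB2P shares no library series with KP, so genotype and series cannot be told apart there.

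Between KB2P and KB1P adenocarcinomas no member was called by limma, where 1.99% of all genes were, and 25 members (2.03%) had an unadjusted p under 0.05, as had 16.9% of all genes. The median difference was 0.01, with a median 95% interval from -0.18 to 0.21. The largest was at Klc1 in the distal raised stretch, 0.24 ± 0.11 (SE, limma adjusted p = 0.254). On unsmoothed log2 ratios limma called 11 members (0.894%), 7 higher and 4 lower in KB2P, and 2.98% of all genes. Without the tumours titled KB1PM and KB1P 47 the median difference was 0.16 in 25 against 18 tumours, with a lowest limma adjusted p of 0.0555. KB2P shares no library series with KB1P either, so genotype and series cannot be told apart in this comparison.

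The KB1(L1363P)P and KP tumours did not differ detectably, but the intervals were wide. In adenocarcinomas limma called 0% of all genes and no member, and 6.73% of all genes but no member had an unadjusted p under 0.05. The median difference was 0.04 with a median 95% interval from -0.49 to 0.55 (3 against 6 tumours). Its sign turned when 1 KB1(L1363P)P tumour was left out, to -0.09 without replicate 7 and -0.13 without replicate 19. In sarcomatoid tumours limma called 0.00460% of all genes and no member, and 0.0827% of all genes but no member had an unadjusted p under 0.05. The median difference was -0.03, with an interval from -0.34 to 0.28 (12 against 10 tumours). Without KP replicate 12 that difference was 0.01. The sarcomatoid tumours of KB1(L1363P)P were all in library series 5289 and those of KP all in series 5750. Genotype and series therefore cannot be told apart in the sarcomatoid comparison. On unsmoothed log2 ratios limma called no member in either comparison. Differences of up to about these bounds remain possible at this number of tumours.

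Between KB1(L1363P)P and KB1P adenocarcinomas limma called no member, where 0.882% of all genes were called, and 310 members (25.2%) had an unadjusted p under 0.05, as had 12.6% of all genes. The median member was lower in KB1(L1363P)P by a difference of -0.36, with a median 95% interval from -0.81 to 0.10 (3 against 29 tumours). On unsmoothed log2 ratios limma called none of the members and 0.558% of all genes. Leaving out KB1(L1363P)P replicate 21, the adenocarcinoma at -0.79, moved the median difference to -0.21, leaving out replicate 19 or 7 gave -0.53 or -0.40, and within library series 5289 it was -0.05 (2 against 8 tumours). Without the tumours titled KB1PM and KB1P 47 it was -0.20, and the smallest size of these settings was the one within the shared series.

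The histologic types were known to differ in chromosome 12 level when the chromosome was chosen, so their calls are given as counts alone. Between KB1(L1363P)P sarcomatoid tumours and carcinosarcomas limma called 0.0919% of all genes and no member, with 922 members (75.0%) and 5.07% of all genes at an unadjusted p under 0.05. Between KP sarcomatoid tumours and adenocarcinomas limma called 0.0850% of all genes and no member, with 641 members (52.1%) and 2.87% of all genes at an unadjusted p under 0.05. The median member differed by 0.39 and 0.38, higher in the sarcomatoid tumours.

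Carcinosarcomas mix epithelial and spindle-shaped tumour tissue, and the labels gave the epithelial percentage of each. In KB1(L1363P)P, the tumours with 2% and 5% epithelium had levels of -0.33 and -0.24, both as even losses of the whole chromosome. The tumour with 40% was at -0.57 and that with 75% at -0.37, each with a lost distal part, at -0.67 and -0.64, next to a proximal part at 0.00 and 0.35. The 2 tumours with 85% were at -0.46 and -0.87, that with 90% at -0.85, that with 95% at -0.91 and that with 98% at -0.57, its lost part at -0.75. The lowest segments of the 7 tumours with 40% or more epithelium lay between -0.91 and -0.58, below the 2 tumours with little epithelium. Both KP carcinosarcomas were labelled 90% and stood at -0.80 and -0.43, and the KB1P carcinosarcoma, labelled 80%, at -0.01.

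A linear fit on percent epithelial in the 9 KB1(L1363P)P carcinosarcomas gave a limma call for 527 of the 1230 members, 42.8%, where 1.80% of all genes were called, all lower with more epithelium. Because the chromosome was chosen with its pattern over the histologic types known, this is no independent evidence of a relation with epithelial content. Of all called genes, 530 were placed on chromosome 12, counting genes not reported here, 33 lay on chromosome 9 and 219 had no position. The called members formed 1 stretch, chr12:48555059-100300908 from Gm1818 to Gm10432, in which the genes share nearly the same segments. Foxa1, Hif1a, Esr2 and Zfp36l1 lie in it, each with a slope of -0.055 ± 0.011 (SE) in log2 per 10 points of epithelium and a limma adjusted p of 0.0437. Outside it, Siva1 and Meg3 had a slope of -0.051 ± 0.015 (SE, limma adjusted p = 0.117) and Dnmt3a, in the proximal part that 2 of the 9 tumours had kept and 2 had gained, had one of -0.0058 ± 0.062 (SE, limma adjusted p = 0.946).

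The calls lay close to the threshold, and single tumours decided them, whereas the median slope over the members stayed between -0.059 and -0.044 whichever tumour was left out. Leaving out replicate 2, 5, 11, 17, 22, 23 or 24 ended all of them, and leaving out replicate 3 kept the count at 527. Leaving out replicate 15, with its proximal gain, raised the count to 889 members (72.3%), where 2.83% of all genes were called. No member was called with library series as a block (lowest limma adjusted p 0.168), with the KP carcinosarcomas added and genotype as a term (0.153) or on unsmoothed log2 ratios (0.084). After centring on the autosomal median, limma called 528 members, all lower with more epithelium. That setting called 3870 of all genes, of which 3087 were higher with more epithelium. The median slope over the members was -0.051 in the 9 tumours and -0.046 with the block. Replicates 23 and 24 share the title number 54, and without replicate 24 the lowest limma adjusted p was 0.0763. The part of library series in this relation was not tested beyond the block.

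**Figure D5:**
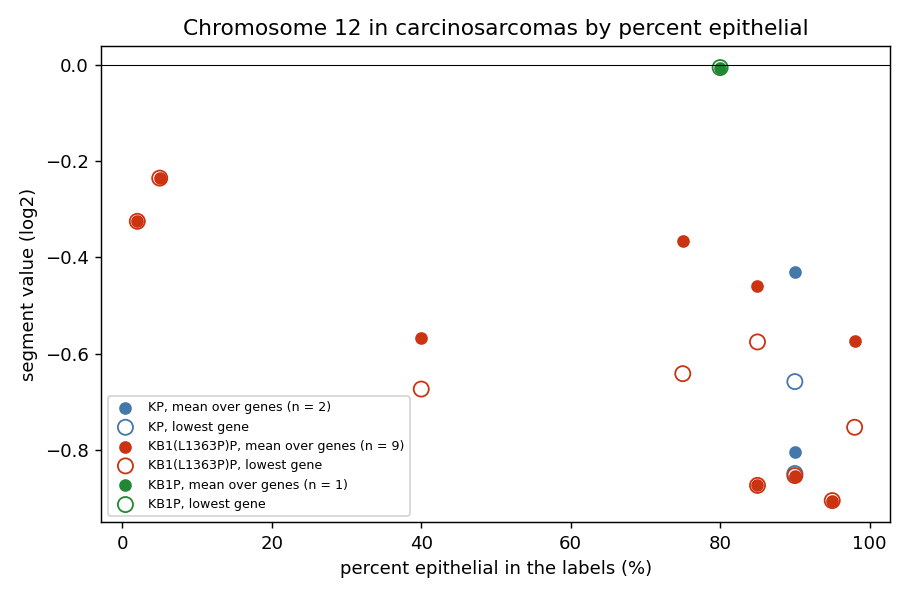
Segment value (log2) of chromosome 12 against the percentage of epithelium in the labels for the carcinosarcomas, with filled points for the mean over genes and open points for the lowest gene, coloured by genotype. The 2 KB1(L1363P)P tumours with 2% and 5% epithelium lie at -0.33 and -0.24 and those with 85% to 98% at -0.91 to -0.46.

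Among the KB1(L1363P)P tumours, 3 pairs share a number in their titles, which may mark 1 animal, although the labels do not say so. In pair 26 the sarcomatoid tumour had an even whole loss at -0.24 and the adenocarcinoma a partial loss at -0.39 with 5 steps, from -0.77 to 0.54. In pair 7 the sarcomatoid tumour had an even whole loss at -0.33 and the adenocarcinoma a partial loss at -0.49 with 9 steps. In pair 54, both carcinosarcomas, 1 had an even loss at -0.85 and the other kept and gained the proximal part, from -0.64 to 0.35. In each pair the chromosome 12 profiles therefore differed in their breaks. Across the genes of all autosomes the segment values of the pairs correlated with Pearson's r of 0.115, 0.0827 and 0.591, over 31194 genes, which share segments and are not independent replicates.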

How the data were processed

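Copy number was measured by sequencing tumour and spleen DNA at low coverage. The labels' protocols describe alignment by BWA and read counting in 20 kb bins with a correction for GC content and mappability, and name a human build there. The build mm10 is given per the submitters' processing notes, which also list Picard, SAMtools 1.10, BWA 0.7.17 and cutadapt 2.5. The authors deposited per gene a log2 ratio, a log2 segment value and a copy score, in which the spleens' median is 2. Not given in the sources used here are the segmentation method, what the ratio is taken against and how bins became genes. The tables hold no read counts, so the depth behind each value is unknown and no interval from counting could be given.

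Symbols were placed on GRCm38.p6 with RefSeq: 32661 matched by symbol, 55 by an older symbol, and 10797 had no position. Of 1236 placed on chromosome 12, 6 are not reported here. Groups came from the labels' genotype and histologic type, and replicate numbers follow accession order. Differences were fitted with limma 3.58.1 (R 4.3.3) on segment values of all genes, with all groups of at least 2 tumours sharing 1 estimate of the spread, tested on simulated data. The labels do not say which tumours share an animal, so p-values measure only the spread between these samples, which may be technical in part. Tables and plots were made with Python 3.11.15, pandas 2.3.3, numpy 2.4.6 and matplotlib 3.10.9, and R's data.table was version 1.17.8. The members, gene lists and tests were chosen with earlier results of these data known. Named genes were the ends of the chromosome and of each most often lost stretch, genes in a focal stretch of several tumours, and list members at the extremes of mean value or position; genes at the extremes of a fitted difference, single steep segments and the distal step of KB2P were added after their values were seen. Alternatives were loss thresholds of -0.1 and -0.3, class limits of 90% and 10%, the copy score, log2 ratios, centring on the autosomal median, fits of 2 groups alone, library series, tumours left out by title or similarity, and single tumours left out. Leaving out KP replicate 12 or each carcinosarcoma, and the rank on log2 ratios, were chosen after the data were seen.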

Additional observations from a re-analysis of the deposited data

Results flagged for a closer look

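KP sarcomatoid replicate 12 had a chromosome 12 level of 0.19, far from the other 9 KP sarcomatoid tumours, the highest of which was at -0.17. The gap to its nearest neighbour, set against the whole range of the group, passed Dixon's 95% limit for 10 samples. Such a limit is passed by chance in about 1 in 20 groups. Both ends of the KP sarcomatoid, KP adenocarcinoma and KB1(L1363P)P carcinosarcoma groups were looked at, so a flag by chance is likelier than that. The limit served only to pick tumours for a closer look. The tumour had 1 even segment along the chromosome, and chromosome 12 was its 13th lowest autosome of 19. Without it the group's mean moved from -0.19 to -0.23.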

How the results depend on the processing

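Of 42 other settings for the group levels, 41 moved the mean by less than 1 SD and all 42 left it below 0. The exception was the KB1(L1363P)P adenocarcinoma level with 1 tumour per title number, -0.79 from a lone tumour. A group's mean cannot move by 1 SD when a single tumour is left out, so those settings could not fail this limit. Leaving out 1 tumour gave -0.64 to -0.44 for the KB1(L1363P)P adenocarcinomas, -0.80 to -0.43 for the KP carcinosarcomas and -0.23 for the KP sarcomatoid tumours. The deposited copy score gave 16 whole losses and 46 tumours without loss, and a threshold of -0.3 gave 35 without loss. The longest stretch shared by the partial losses of KP and KB1(L1363P)P began at 71.5406 Mb with a threshold of -0.1, where the one up to Serpina3m was lost as often, and with the copy score. On log2 ratios limma called 6 members between KB1P and KP, 51 between KB2P and KP and 11 between KB2P and KB1P adenocarcinomas, against 0 on segment values. Of all genes, 1.50%, 0.411% and 2.98% were called in those fits on log2 ratios. The cause of the change was not tested. The slope on percent epithelial gave 0 called members on log2 ratios, with library series as a block, without tumour 54.2 and with the KP carcinosarcomas added. It gave 528 after centring on the autosomal median, and 0 to 889 when 1 tumour was left out. Leaving out single tumours left 0 members called in the other comparisons where it was run. No paired analysis was possible because replicate numbers are in accession order and the groups compared within a genotype share no title number. Depth is unknown, so what it limits could not be given.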
